A study of Mus musculus with 26 samples.

Results

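The 10 genes described here encode peptide hormones and a granule protein of enteroendocrine cells, the scattered hormone-secreting cells of the gut lining. They are Cck, Sct, Gip, Ghrl, Gcg, Pyy, Nts, Sst, Tac1 and Chga, and they were found by gene symbol in the deposited expression table. All 10 held a value in each of the 26 libraries, and they make up 10 of the 25146 complete gene lines. Expression was measured by sequencing the 3' ends of transcripts, amplified from 1 ng of RNA per library, in 13 sorted mouse cell groups with 2 replicates each. The values are in RPM (reads scaled to the depth of the library) and are not scaled to transcript length, so levels are compared between groups for 1 gene at a time.

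The 3 intestinal groups were epithelium at E16.5 (embryonic day) and at postnatal days 3 (P3) and 14 (P14), taken between the caudal duodenum and the junction with the caecum. E16.5 cells were sorted as EpCAM-positive and positive for the BLIMP1 reporter, and P3 and P14 cells as EpCAM-positive and reporter-negative, so age and gate cannot be told apart between E16.5 and the later ages. The retinal groups were reporter-positive photoreceptor precursors at P0, reporter-positive cells split by the surface protein CD73 at P4, and CD73-positive cells at P6 and P10. The B-lineage groups were spleen B cells from mice of 8 to 10 weeks, and blasts, pre-plasmablasts (prePB) and plasmablasts (PB) sorted from cultures that had received LPS (10 ng/mL) together with IL-4 (2 ng/mL) for 3 days. All these mice were C57BL/6 and carried EGFP fused to the N terminus of BLIMP1 on both alleles, controls included, so no cells with unmodified BLIMP1 stand beside them. The last group was day 2 primordial germ cell-like cells (d2 PGCLC) induced in culture from a C57BL/6 and 129 line with Blimp1-mVenus and stella-ECFP reporters and a Rosa26-rtTA transgene. The labels do not state whether the 2 replicates of a group are separate animals, so the p-values below reflect only how much these libraries vary, which may be technical.

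Enteroendocrine cells arise from the same crypt progenitors as absorptive enterocytes, goblet cells and Paneth cells, under transcription factors such as NEUROG3 and NEUROD1. They cut hormone precursors with prohormone convertases, store the peptides in dense granules beside chromogranins, and release them in response to nutrients. Cells rich in one hormone lie in different stretches of the gut and often make several hormones, with GIP and CCK typical of proximal and GLP-1 (from Gcg), PYY and neurotensin of distal small intestine.

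Short stretches of 4 of the promoters show a feature that the choice of genes did not use, the core of the cAMP response element just upstream of the start. A stretch of Gcg is shown for another motif. The sequences are from RefSeq (GRCm38.p6) and read 5′ to 3′ on the strand of the gene. Capitals mark TGACGTCA (Sst), TGACG on either strand (Chga, Cck and Tac1, where CGTCA is the reverse strand match) and CAGATG, an E-box of the kind bound by NEUROD1 (Gcg).
Sst: cgcctccttggcTGACGTCAgagagagagt
Chga: cgggggggcggtcctaTGACGtaatttcct
Cck: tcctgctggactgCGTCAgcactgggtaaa
Tac1: acgtggctctacaggctCGTCAcgcctgag
Gcg: caaaaccccattatttaCAGATGagaaatt
The Sst stretch is chr16:23890875-23890904 (minus strand), the Chga stretch chr12:102554881-102554910 (plus), the Cck stretch chr9:121495725-121495754 (minus) and the Tac1 stretch chr6:7555001-7555030 (plus). These 4 stretches run from 60 to 31 bases upstream of the start in the promoter table. For Sst that start is base 23890844, which lies inside the outer bounds of the gene given below. The Gcg stretch, chr2:62483724-62483753 (minus), runs from 100 to 71 bases upstream. TGACG, which is part of TGACGTCA, was found in that window of 60 to 31 bases in 4 of the 10 genes and in 3.38% of all 32851 promoters. That window encloses the matches shown, so its shares are not an even comparison. Over the whole 250 bases upstream, TGACG was found in 5 of the 10 genes (Nts being the fifth) against 17.8% of all promoters, and TGACGTCA in Sst against 1.55%. CAGATG was found in Gcg, Cck, Tac1 and Sct, 4 of the 10, against 14.4% of all promoters. It is thus not particular to Gcg, and a link to the course of any gene was not tested. Both strands were searched, and a match describes the letters only. The 10 genes had 14 promoter entries and were counted by gene, with a match in any entry, whereas all promoters were counted by entry.

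The intestinal libraries carried their labelled tissue: the epithelial genes Epcam (717 to 1087 RPM), Cdh1 (71.8 to 136 RPM) and Vil1 (713 to 1125 RPM) were high in all 6, against at most 164, 13.7 and 3.04 RPM in the other 20 libraries. Taking the commonest value above 0 in a library as 1 read, libraries held about 1716491 to 6040033 reads, so 1 read was worth 0.166 to 0.583 RPM. Some values were smaller than this, so these read numbers are estimates. The shallowest intestinal library held about 2230256 reads. Changes are log2 fold changes of (RPM + 1) ± SE as fitted by limma, and adjusted p means Benjamini-Hochberg adjustment across every gene in the fit. A gene was called, and is written as having risen or fallen, when its adjusted p lay below 0.05 and its change reached 1 on the log2 scale in either direction.

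All 10 genes rose from E16.5 to P3, by log2 3.40 for Sct up to 7.49 for Sst. Between P3 and P14 the genes parted: Nts, Sst, Pyy, Cck, Ghrl, Sct and Gip fell, while Gcg, Tac1 and Chga were not called. Summed over the 10 genes, the level was 159 and 111 RPM at E16.5, 8169 and 5115 RPM at P3, and 1775 and 3318 RPM at P14. Among the 10481 genes tested in intestine, 20.8% were called from E16.5 to P3 and 12.6% rose, beside 10 of 10 hormone genes. The hormone genes were chosen with earlier results of these data known. Of the 10, 6 would not have passed the filter (at least 5 RPM in at least 2 libraries) through the E16.5 libraries alone. The count and the median of this first step are thus partly set by the choice of genes and the filter. From P3 to P14, 4.4% were called, 2.4% falling and 1.99% rising, beside 7 of 10 hormone genes that fell and none that rose. The median change of the 10 genes was 6.11 in the first step, where that of all genes was 0.11, and -1.49 in the second, where that of all genes was -0.08. In these bulk samples, fewer cells of a type and less RNA per cell cannot be told apart. Both steps use the same P3 libraries, so their values for a gene are not independent. Nor are the 10 genes independent of one another: 10 were higher in replicate 2 at P14, 2 at P3 and 5 at E16.5. They thus moved largely together within the P3 and P14 libraries, and counts over genes are not counts of separate results.

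**Figure D1:**
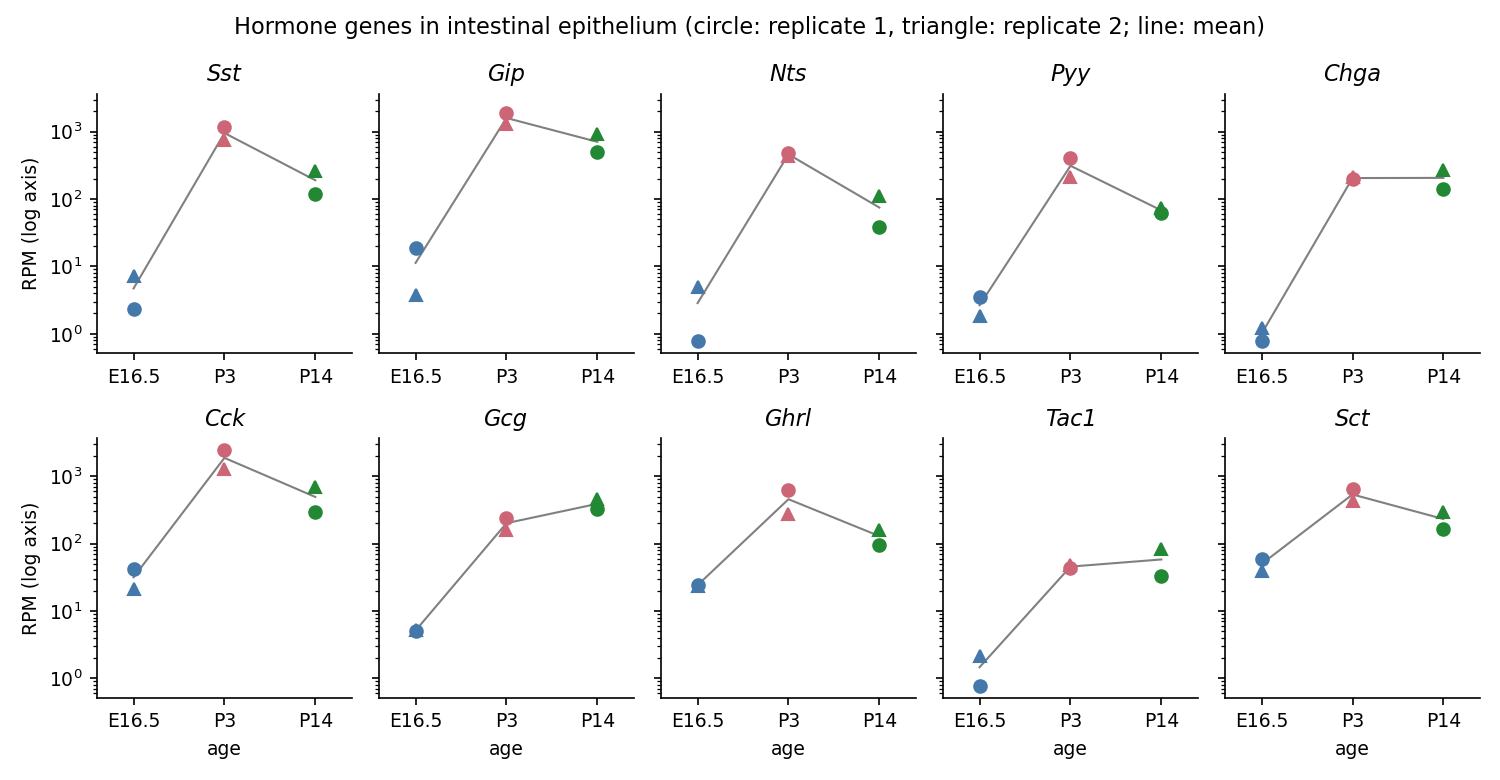
RPM of each hormone gene (log axis) in the 2 libraries at E16.5, P3 and P14, with a grey line through the group means. The P3 points lie above the E16.5 points in all 10 panels, and in Gcg the P14 points, 327 and 452 RPM, lie above the P3 points.

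Cck, Sct and Gip are hormones of the fed upper gut. Cck (Entrez ID 12424; chromosome 9, 121489824 to 121495694) encodes cholecystokinin, which empties the gall bladder and stimulates pancreatic enzyme release. It measured 41.9 and 21.3 RPM at E16.5, 2462 and 1289 RPM at P3, and 297 and 688 RPM at P14. The 3 ages did not overlap, with P3 highest and E16.5 lowest. Cck rose by 5.85 ± 0.30 from E16.5 to P3 (limma, adjusted p = 1.99e-13) and fell by 1.97 ± 0.30 from P3 to P14 (limma, adjusted p = 8.95e-05).

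Sct (Entrez ID 20287; chromosome 7, 141278329 to 141279174) encodes secretin, which drives bicarbonate secretion by the pancreas. Its levels were 60.02 and 39.8 RPM at E16.5, 649 and 424 RPM at P3, and 167 and 297 RPM at P14. Again the ages did not overlap, and Sct had the smallest rise of the 10 genes, 3.40 ± 0.23 (limma, adjusted p = 2.86e-11), from an E16.5 level that rested on 156 and 129 reads. It fell by 1.23 ± 0.23 after P3 (limma, adjusted p = 0.000805). Without P3 replicate 1 the change was -0.93 and without P14 replicate 1 it was -0.82, and in both cases the call was lost.

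Gip (Entrez ID 14607; chromosome 11, 96024532 to 96030831) encodes the glucose-dependent insulinotropic peptide of K cells. It measured 18.9 and 3.71 RPM at E16.5, 1883 and 1309 RPM at P3, and 494 and 919 RPM at P14. The E16.5 replicates were far apart, yet both lay far below every later library, and P3 did not overlap P14. Gip rose by 7.34 ± 0.37 (limma, adjusted p = 1.66e-13). Its fall after P3, 1.22 ± 0.37 on the log2 scale, had the largest adjusted p of the 7 falls (limma, 0.0401), and the call was lost without either P3 library or without P14 replicate 1, with changes between -1.48 and -0.77.

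Ghrl (Entrez ID 58991; chromosome 6, 113716119 to 113719911) encodes ghrelin, an appetite-stimulating peptide best known from the stomach. It measured 24.6 and 23.8 RPM at E16.5, 633 and 279 RPM at P3, and 96.7 and 162 RPM at P14. The ages did not overlap, although the P3 replicates differed by 1.18 on the log2 scale, the widest P3 gap of the 10 genes. Ghrl rose by 4.06 ± 0.26 (limma, adjusted p = 1.34e-11) and then fell by 1.74 ± 0.26 (limma, adjusted p = 8.19e-05). The predicted genes Gm26982 and Gm44033 on the opposite strand overlap its exons. Whether counting used strand is not known from the labels, so reads of these genes cannot be told apart from those of Ghrl.

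Gcg, Pyy and Nts are typical of L cells and their neighbours in the distal gut. Gcg (Entrez ID 14526; chromosome 2, 62474530 to 62483653) encodes proglucagon, which intestinal cells cut into GLP-1 and GLP-2. It measured 5.002 and 5.25 RPM at E16.5, 243 and 159 RPM at P3, and 327 and 452 RPM at P14. Its replicates were close at E16.5, and every P14 library lay above both P3 libraries. Gcg rose by 5.01 ± 0.21 from E16.5 to P3 (limma, adjusted p = 4.78e-15). The further change to P14 was 0.96 ± 0.21 (limma, adjusted p = 0.00356), just under the fold threshold. It passed that threshold with 2 other scalings, at 1.05 and 1.00, and without P3 replicate 1 or P14 replicate 1, at 1.27 and 1.20.

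Pyy (Entrez ID 217212; chromosome 11, 102106676 to 102107832) encodes peptide YY, which slows gut transit and is often made in the same cells as GLP-1. Its levels were 3.46 and 1.85 RPM at E16.5, 408 and 215 RPM at P3, and 62.2 and 73.3 RPM at P14. No age overlapped another, and P14 replicates were close. Pyy rose by 6.38 ± 0.27 (limma, adjusted p = 6.03e-15) and fell by 2.12 ± 0.27 (limma, adjusted p = 8.68e-06), where Gcg had a positive change.

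Nts (Entrez ID 67405; chromosome 10, 102481756 to 102490418) encodes neurotensin, a peptide of N cells that promotes fat absorption. It measured 0.769 and 4.94 RPM at E16.5, which were 2 and 16 reads, then 484 and 437 RPM at P3, and 37.8 and 112 RPM at P14. The ages did not overlap, and the P14 replicates lay farther apart than those of P3. Nts rose by 7.15 ± 0.40 (limma, adjusted p = 1.06e-12) and had the largest fall of the 10 genes, 2.80 ± 0.40 on the log2 scale (limma, adjusted p = 4.19e-05).

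Sst, Tac1 and Chga are not tied to a single hormone response to meals. Sst (Entrez ID 20604; chromosome 16, 23889573 to 23891342) encodes somatostatin, the peptide of D cells that inhibits release of other gut hormones. It measured 2.31 and 7.10 RPM at E16.5, 1166 and 744 RPM at P3, and 118 and 261 RPM at P14, without overlap between ages. Sst had the largest rise, 7.49 ± 0.32 (limma, adjusted p = 6.49e-15), and it fell by 2.397 ± 0.32 (limma, adjusted p = 1.47e-05).

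Tac1 (Entrez ID 21333; chromosome 6, 7555061 to 7562978) encodes substance P and neurokinin A, which serotonin-making enterochromaffin cells also produce. Its levels were 0.769 and 2.16 RPM at E16.5, 43.0 and 48.1 RPM at P3, and 33.3 and 83.1 RPM at P14. The P14 libraries lay on either side of both P3 libraries. Tac1 rose by 4.30 ± 0.36 to P3 (limma, adjusted p = 1.83e-09), and its change to P14 was 0.21 ± 0.36 (limma, adjusted p = 0.819).

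Chga (Entrez ID 12652; chromosome 12, 102554941 to 102565027) encodes chromogranin A, a granule protein rather than a hormone, and is used as a general marker of enteroendocrine cells. It measured 0.769 and 1.24 RPM at E16.5, only 2 and 4 reads, then 199 and 211 RPM at P3, and 142 and 270 RPM at P14. The P14 values enclosed the P3 values. Chga rose by 6.69 ± 0.25 (limma, adjusted p = 8.33e-16), and its change from P3 to P14 was -0.06 ± 0.25 (limma, adjusted p = 0.925). Because of the few reads at E16.5, the size of its rise depended on the pseudocount, 7.11 with 0.5 RPM and 5.13 with 5 RPM in place of 1 RPM.

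**Figure D2:**
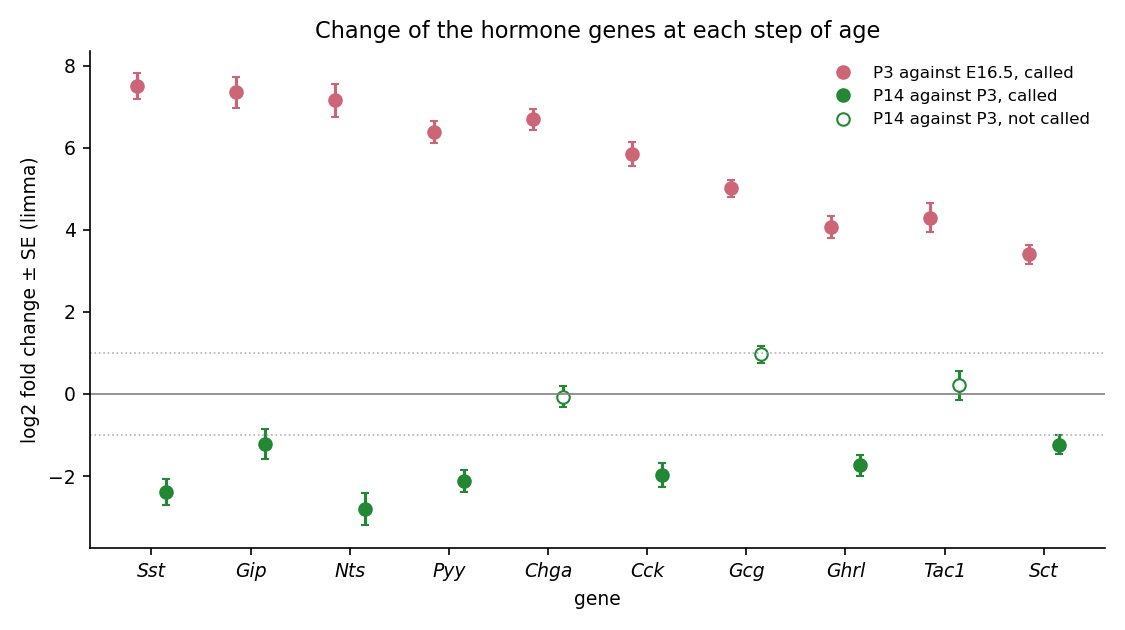
Log2 fold change ± SE (limma) of each hormone gene from E16.5 to P3 and from P3 to P14, with filled points for called genes and dotted lines at the fold threshold. The first step lies between 3.40 and 7.49 for all 10 genes, and in the second step the open points are Chga, Gcg and Tac1.

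At P14 all 10 genes were still above E16.5, beside 11.8% of all genes tested that rose over this span. The values ran from 2.16 ± 0.23 for Sct and 2.32 ± 0.26 for Ghrl to 6.63 ± 0.25 for Chga (limma, largest adjusted p = 1.42e-07). In this comparison Gcg stood at 5.98 ± 0.21, above Sst at 5.10 ± 0.32. As to the filter on low values (at least 5 RPM in at least 2 libraries of the fit), all 10 genes passed it at P3 and at P14. Sst, Gip, Nts, Pyy, Chga and Tac1, 6 of the 10, would not have passed it through the E16.5 libraries alone, so they entered the test through the postnatal libraries, where they are high. Without this filter the 10 genes were still called in both comparisons with E16.5. The 7 falls from P3 to P14 were less stable. With the filter removed 0 of 10 were called by limma, although 7 had an unadjusted p under 0.05, and without the trend of variance on expression 1 was called, Pyy.

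Set against Chga in the same library, the other hormones stood in different proportions at the 3 ages. The log2 ratio of Sct to Chga was 5.11 and 4.19 at E16.5, 1.70 and 1.00 at P3, and 0.23 and 0.13 at P14. The ratio of Ghrl to Chga was 3.86 and 3.47 at E16.5, 1.67 and 0.40 at P3, and -0.55 and -0.74 at P14. Thus for Sct and Ghrl each age lay below the one before, without overlap. For Cck the ratio was 4.601 and 3.32, then 3.62 and 2.60, then 1.06 and 1.35, so P14 was below both other ages, which overlapped each other. Gcg took another path: its ratio was 1.76 and 1.48 at E16.5, 0.29 and -0.41 at P3, and 1.20 and 0.74 at P14. The ratios of Sst, Gip, Nts and Pyy were all lower at P14 than at P3 without overlap, and that of Tac1 was -2.18 and -2.11 at P3 and -2.06 and -1.69 at P14. The ratios are given as values without a test, and those at E16.5 rest on 2 and 4 reads of Chga.

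**Figure D3:**
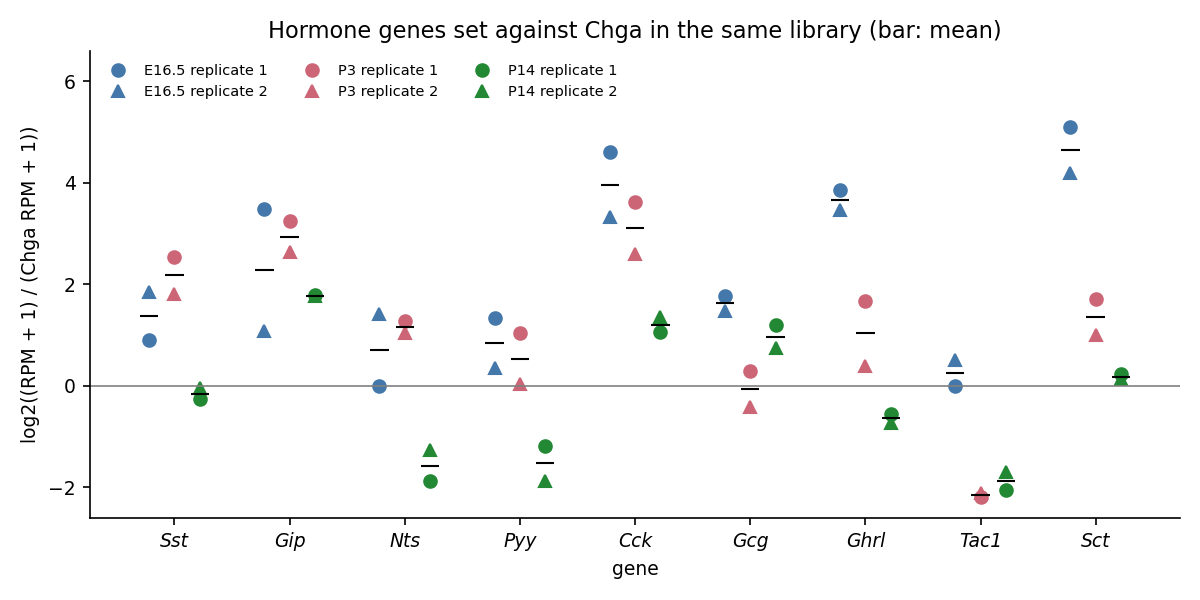
Log2 ratio of (RPM + 1) of each hormone gene to Chga in the same library, for both replicates at E16.5, P3 and P14, with a bar at the mean. Sct and Ghrl step down at each age, and Gcg is lowest at P3.

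P14 replicate 2 was above replicate 1 in 10 of 10 hormone genes, by a median of 0.91 on the log2 scale, where the median over all 10481 genes tested was 0.02. The gap ran from 0.23 for Pyy to 1.54 for Nts. In the granule and processing list below, 15 of 17 tested genes were also higher in P14 replicate 2. At P3 the second library was lower in 8 of 10 hormone genes, with a median of -0.61 against 0.06 over all genes, and Chga and Tac1 were the 2 exceptions. At E16.5 the hormones were split, 5 higher and 5 lower.

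The other genes of the pathway were taken from lists. Most genes of these lists that were tested were low at E16.5 and passed the filter through the postnatal libraries, so the counts and medians below describe the genes that passed and not the whole lists. Of the granule list, 3 of 21 genes were above 5 RPM in each E16.5 library, against 16 and 17 in the P3 libraries. Of the transcription factors, 4 and 3 of 19 were, against 14 in each P3 library, while 6 of the 7 enzymes were above 5 RPM at every age. Of 21 granule proteins and prohormone-processing genes, 17 were tested, 15 rose from E16.5 to P3 and none fell, with a median change of 2.92. Chgb, a second chromogranin, measured 17.3 and 19.8 RPM at E16.5, 1167 and 1111 RPM at P3, and 420 and 689 RPM at P14. It rose by 5.87 ± 0.18 (limma, adjusted p = 1.36e-17) and then fell by 1.08 ± 0.18 (limma, adjusted p = 0.000241) (whether this differs from Chga was not tested). Pcsk1, the convertase that releases GLP-1 from proglucagon, measured 0.385 and 1.24 RPM at E16.5 and 30.0 and 30.6 RPM at P3, a rise of 4.15 ± 0.36 (limma, adjusted p = 3.36e-09). Resp18, Scg5 and Scg3, further granule or convertase-binding proteins, were at 0 to 0.769 RPM at E16.5 and at 16.49 to 29.1 RPM at P3, and all 3 were called. From P3 to P14 only Chgb and Scg5 (-1.42 ± 0.38, limma, adjusted p = 0.0192) of the 17 fell, none rose, and the median change was -0.66.

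Of 19 enteroendocrine transcription factors, 14 were tested, 12 rose from E16.5 to P3 and none fell, with a median of 2.34. Sox4, a factor of early secretory progenitors, measured 11.9 and 10.5 RPM at E16.5 and 99.1 and 87.2 RPM at P3, a rise of 2.95 ± 0.22 (limma, adjusted p = 1.86e-10). Neurod1, which acts after endocrine commitment, went from 8.85 and 3.40 RPM to 35.9 and 37.0 RPM, a rise of 2.51 ± 0.34 (limma, adjusted p = 2.43e-06). Nkx2-2 was at 0.385 and 0 RPM and then at 13.5 and 7.40 RPM, and Rfx6 rose by 2.49 ± 0.52 (limma, adjusted p = 0.000567). Foxa2 was at 0 in both E16.5 libraries and at 7.17 and 7.74 RPM at P3. From P3 to P14, 13 of the 14 factors were not called, and the median change, -0.08, was that of all genes. The exception was Pdx1, a factor of proximal gut identity, which measured 6.93 and 8.03 RPM at E16.5, 8.97 and 4.38 RPM at P3, and 0.915 and 0.331 RPM at P14, a fall of 2.197 ± 0.48 on the log2 scale (limma, adjusted p = 0.00371).

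**Figure D4:**
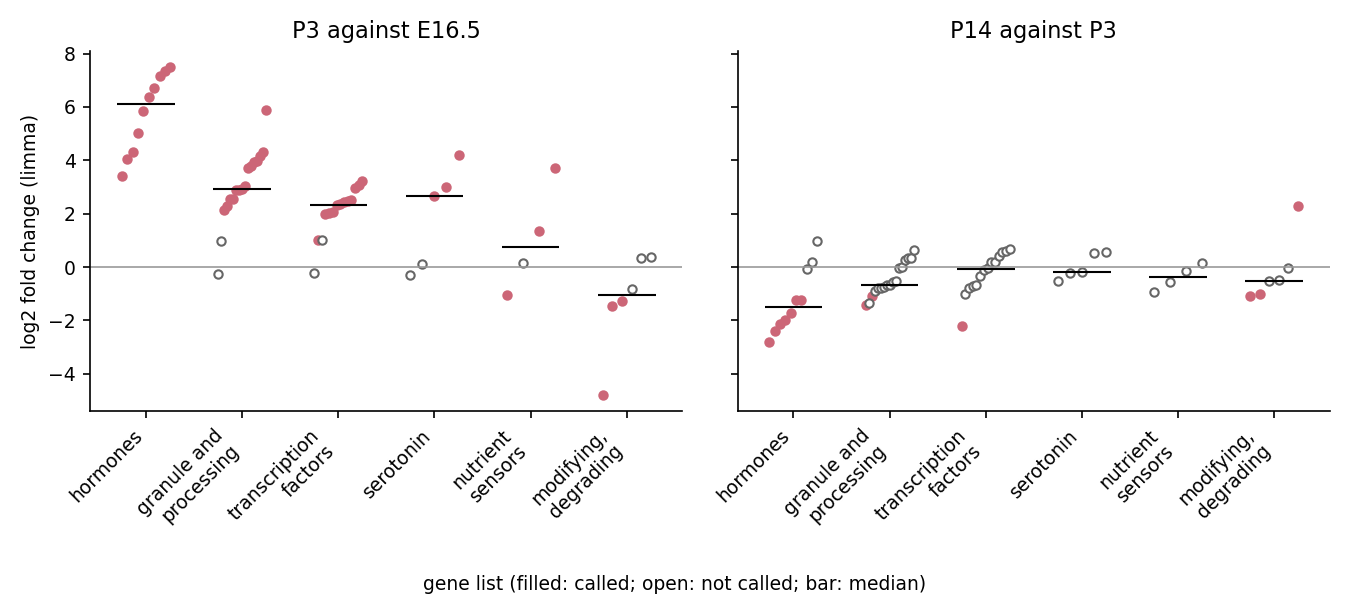
Log2 fold change (limma) of every tested gene of the hormone set and of 5 related lists at each step, sorted within a list, with filled points for called genes and a bar at the median. From E16.5 to P3 the medians were 6.11 for the hormones, 2.92 for granule genes and 2.34 for transcription factors, and from P3 to P14 they were -1.49, -0.66 and -0.08.

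Of 7 genes of serotonin-making enterochromaffin cells, 5 were tested and 3 rose to P3. Tph1, the rate-limiting enzyme of serotonin synthesis in the gut, measured 0.769 and 1.54 RPM at E16.5, 46.6 and 30.6 RPM at P3, and 21.97 and 47.5 RPM at P14. Its rise was 4.19 ± 0.37 (limma, adjusted p = 3.26e-09), and its P3 and P14 values overlapped, as those of Tac1 did. The factors Fev and Lmx1a were the other two that rose, and none of the 5 was called from P3 to P14.

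Among other gut peptides, Cartpt was the single tested gene of 16 listed. It measured 0 and 0.309 RPM at E16.5, 25.6 and 22.2 RPM at P3, and 1.22 and 2.81 RPM at P14, a rise that was called and then a fall of 3.09 ± 0.48 on the log2 scale (limma, adjusted p = 0.000118). Npy and Nppc were at 0 in all 6 intestinal libraries. Of the 4 nutrient receptors tested, Ffar2, a receptor for short-chain fatty acids, rose by 3.70 ± 0.34 (limma, adjusted p = 6.20e-09), from 2.73 and 1.24 RPM to 36.4 and 36.7 RPM. O3far1, a receptor for long-chain fatty acids, rose by 1.35 ± 0.42 (limma, adjusted p = 0.0139). Slc5a1, the glucose transporter of enterocytes that also serves as a sensor, fell by 1.03 ± 0.17 on the log2 scale (limma, adjusted p = 2.69e-05).

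Receptors for these hormones were mostly too low to test in this epithelium. Of 23 receptor genes in the table, Sstr1 alone passed the filter: it was at 0 in both E16.5 libraries, at 15.7 and 11.4 RPM at P3, and at 7.32 and 12.9 RPM at P14. Sctr, Gcgr, Glp2r, Cckar, Cckbr, Ghsr, Ntsr1 and Ntsr2 were at 0 in all 6 libraries. Of 6 tested enzymes that trim or degrade the peptides, 3 fell from E16.5 to P3 and none rose. Of all genes, 20.8% were called in either direction in this step and 12.6% rose. Enterocyte markers fell as well (4 of 7), and whether the enzymes follow them was not tested. Dpp4, which inactivates GLP-1 and GIP, measured 225 and 227 RPM at E16.5, 79.4 and 85.8 RPM at P3, and 81.2 and 81.3 RPM at P14, a fall of 1.44 ± 0.16 on the log2 scale (limma, adjusted p = 1.53e-07) with no call after P3. Enpep, a brush border aminopeptidase, fell by 4.79 ± 0.24 (limma, adjusted p = 1.13e-13) and then rose by 2.31 ± 0.24 (limma, adjusted p = 3.90e-07). Anpep, another brush border aminopeptidase, fell from P3 to P14 by 1.08 ± 0.20 (limma, adjusted p = 0.000818). Ace fell at both steps, by 1.27 ± 0.31 (limma, adjusted p = 0.00234) and by 1.01 ± 0.31 (limma, adjusted p = 0.0415). Mboat4, which adds the fatty acid that activates ghrelin, stayed at or below 2.78 RPM and was not tested.

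Markers of crypt, Paneth and goblet cells were higher at P3 than at E16.5, as the hormones were, and their part in the results was not tested. The summed level of 5 crypt stem cell markers was 28.4 to 31.2 RPM at E16.5, 1943 to 2226 RPM at P3 and 2032 to 2860.2 RPM at P14, and all 5 rose to P3. Paneth cell markers summed to 33.1 to 38.6, 1309.5 to 1602 and 1993 to 2903 RPM (5 of 5 rose), and goblet cell markers to 433 to 457, 2678 to 2868 and 4012 to 5268 RPM (6 of 8 rose). Enterocyte markers summed to 21948.5 to 23558 RPM at E16.5, 11167 to 12274 RPM at P3 and 4249 to 4822 RPM at P14, with 4 of 7 falling at each step. From P3 to P14, where 7 hormones fell, no stem, Paneth or goblet marker fell, and 4 of 5 Paneth markers rose. Tuft cell markers summed to 0.648 to 0.769, 1.35 and 29.6 to 33.9 RPM, and the 3 tested rose from P3 to P14 but not before. No tuft marker was above 5 RPM at E16.5 or P3, so these 3 passed the filter only through P14, where they are high. Of the 5 crypt markers 1 or 2, and of the 5 Paneth markers 1, were above 5 RPM at E16.5. Their counts of rises to P3 thus carry a similar limit.

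Some markers of neighbouring tissues took the same course as the hormones, higher at P3 than at E16.5 and at P14, and their part was not tested. Of 12 stomach markers, 2 passed the filter: Cym was at 20.0 and 15.1 RPM at E16.5, 3042 and 3430 RPM at P3 and 589 and 330 RPM at P14, and Gkn3 at most at 56.8 RPM. Cym rose by 7.46 ± 0.19 (limma, adjusted p = 9.66e-19) and then fell by 2.87 ± 0.19 (limma, adjusted p = 5.92e-10), while Gkn2, Tff1, Muc5ac and Atp4b were at 0 in all 6 libraries. Of 8 pancreatic markers, Ins1, Ins2, Cpa1, Pnlip and Prss2 were at 0 in all 6, and the summed level was 4.23 to 8.34, 24.2 to 41.4 and 9.15 to 14.7 RPM. Ctrb1, an acinar protease precursor, was at 0 and 0.926 RPM at E16.5, 12.6 and 27.9 RPM at P3, and 2.44 and 2.48 RPM at P14, called at both steps, and Cela1 rose by 1.12 ± 0.38 to P3 (limma, adjusted p = 0.024). Of 11 markers of enteric neurons and glia, Hand2, Nos1 and Sox10 were at 0 in all 6, and the sums were 23.7 to 30.1, 34.4 to 39.4 and 8.87 to 13.2 RPM. S100b, a glial protein, rose by 2.19 ± 0.44 (limma, adjusted p = 0.000345) and then fell by 2.64 ± 0.44 (limma, adjusted p = 0.000243), from 14.8 and 14.5 RPM at P3 to 1.53 and 1.49 RPM at P14. Ret fell from P3 to P14 by 1.46 ± 0.32 (limma, adjusted p = 0.00394). Markers of mesenchyme and endothelium summed to at most 17.6 RPM and those of leukocytes to at most 53.1 RPM. Prdm1, which encodes BLIMP1, was at 93.5 and 107 RPM at E16.5, 46.2 and 71.3 RPM at P3, and 21.4 and 16.9 RPM at P14.

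Beyond the intestine, most of these genes were near the limit of detection. Pyy was at 0 in all 20 other libraries, where 3 reads in the shallowest amount to 1.75 RPM, so P3 intestine was at least 178-fold and P14 intestine at least 38.8-fold higher. Sst (at most 0.529 RPM), Gip (0.905), Gcg (0.366) and Cck (2.94, or 13 reads) were low there. For each of them the 3 intestinal ages were the top 3 of 13 groups, without overlap with the next group. The same held for Pyy, Ghrl and Sct, but not for Nts, Chga and Tac1. How many of all genes have this order was not counted. Ghrl was above 0 in 19 of the 20 libraries, at up to 6.06 RPM. Against the mean of the 10 other groups, all 10 genes were called higher at P3 and at P14, beside 19.4% and 18.4% of 14131 genes tested in these fits. Sst, Gip, Nts, Pyy, Cck, Gcg and Tac1 passed the filter on low values in these fits only through intestinal libraries. At P3 and P14 their direction was thus largely set by the filter. They entered the E16.5 contrast below in the same way.

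At E16.5 the contrast with other lineages was mixed. In that comparison 48.4% of all genes were called, and 8 of 10 hormone genes were called higher, beside 19.1% of all genes tested. The largest were Cck at 4.49 ± 0.33 (limma, adjusted p = 4.52e-11) and Sct at 3.87 ± 0.35 (limma, adjusted p = 1.15e-09). Chga was called lower, at -2.204 ± 0.23 (limma, adjusted p = 1.27e-08), beside 29.3% of all genes. Its group means were 29.9 to 85.3 RPM in retina and 4.16 RPM in d2 PGCLC, above E16.5 intestine (1.00 RPM). In the B-lineage groups they were at most 0.665 RPM, below E16.5 intestine. Tac1 was not called (0.80 ± 0.40, limma, adjusted p = 0.0767). The count dropped to 4 higher and 1 lower with a pseudocount of 5 RPM, where Sst, Nts, Pyy and Gcg lost the call. Nts also lost it without E16.5 replicate 2, with a change of 0.19.

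**Figure D5:**
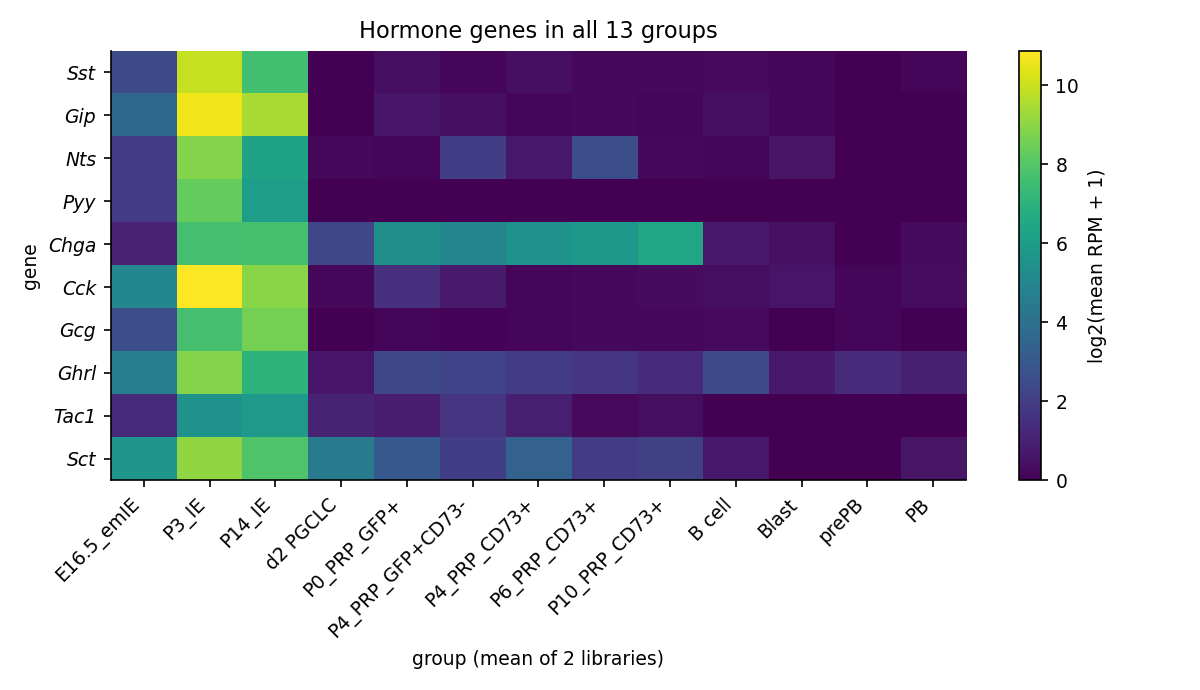
Colour scale of log2(mean RPM + 1) of each hormone gene in the 13 groups, with 2 libraries per group. Outside the intestine the highest levels are Chga in the 5 retinal groups, from 29.9 to 85.3 RPM, and Sct in d2 PGCLC, 22.1 RPM. The other means there are at most 9.79 RPM, that of Sct in P4 CD73-positive retina.

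Chga was the exception in the retina, where chromogranin A is known from neurons. It measured 45.03 and 37.3 RPM at P0, 33.2 and 26.6 RPM in CD73-negative and 55.4 and 38.6 RPM in CD73-positive cells at P4, 63.3 and 46.4 RPM at P6, and 83.4 and 87.1 RPM at P10. P10 lay above all other retinal libraries, and P6, P4 CD73-positive and P0 were neighbours whose ranges overlapped. From P4 to P10 in CD73-positive cells the change was 0.87 ± 0.22 (limma, adjusted p = 0.00698), under the fold threshold. It reached 1.00 with median-of-ratios scaling and 1.12 without P4 CD73-positive replicate 1, and was then called. Markers of amacrine, horizontal and ganglion cells summed to 96.9 to 119 RPM at P10 and to 161 to 249 RPM at the earlier ages, and their part was not tested.

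Sct measured 5.204 and 8.85 RPM at P0, 3.22 and 2.81 RPM in CD73-negative and 6.36 and 13.2 RPM in CD73-positive cells at P4, 3.29 and 2.32 RPM at P6, and 1.30 and 5.05 RPM at P10. It fell from P4 to P10 in CD73-positive cells by 1.46 ± 0.50 on the log2 scale (limma, adjusted p = 0.0369), where 17.2% of all 11704 genes tested in retina were called and 10.8% fell. Most alternatives ended this call: it was lost without P4 CD73-positive replicate 2 (-0.98), without P10 replicate 1 (-0.76), with a pseudocount of 5 RPM (-0.86), and, by its adjusted p, with no filter, without the trend and with both other scalings (limma, adjusted p from 0.0541 to 0.133). Chga and Sct were the only 2 of the 10 genes tested in retina. Neither was called from P0 to CD73-negative cells at P4, beside 11% of all genes, where 0 of 2 had an unadjusted p under 0.05 in limma. Nor was either called between CD73-positive and CD73-negative cells at P4, beside 5.86%, where both had an unadjusted p under 0.05. Nts, below the filter in retina, reached 25 and 8 reads (4.47 and 1.50 RPM) in P4 CD73-negative cells and 15 and 12 reads (5.49 and 4.64 RPM) at P6, with at most 4 reads in any other retinal library.

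Of the receptors, 4 passed the filter in retina: Glp2r, Cckbr and Tacr3, at 0 in all 6 intestinal libraries, and Sstr2, at most 1.35 RPM there. Sstr2, a somatostatin receptor, was at 125 and 114 RPM at P0 and at 2.59 and 7.12 RPM in CD73-negative cells at P4, a fall of 4.48 ± 0.47 on the log2 scale (limma, adjusted p = 6.79e-06). It was at 0 in both P10 libraries. Glp2r, the receptor of GLP-2, went from 4.71 and 1.59 RPM in CD73-positive cells at P4 to 46.2 and 65.3 RPM at P10, a rise of 3.86 ± 0.45 (limma, adjusted p = 9.40e-06). Cckbr rose over the same span by 1.30 ± 0.41 (limma, adjusted p = 0.0258), from 11.3 and 8.99 to 20.3 and 34.3 RPM. Tacr3, the neurokinin B receptor, was lower in CD73-positive than in CD73-negative cells at P4, by -2.04 ± 0.39 (limma, adjusted p = 0.00263).

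In d2 PGCLC, Sct measured 22.7 and 21.5 RPM, which placed that group next after the 3 intestinal ages, and Chga measured 3.50 and 4.82 RPM. Tac1 was at 0.583 and 1.48 RPM there, overlapping E16.5 intestine. In the 8 B-lineage libraries Tac1 and Pyy were at 0, and Ghrl reached 5.78 RPM in a B cell library.

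As a description of likeness, the mean log2(RPM + 1) of the 10 genes was correlated with each of 14121 other genes over the 26 libraries, which are dominated by the contrast between intestine and the rest. Olfm4, a crypt gene, came first (Pearson r = 0.98), with 16.3 ± 0.84 RPM at E16.5, 1829 ± 189 RPM at P3 and 2103 ± 590 RPM at P14 (SD, n = 2 each). Clps, Rnase1, Ccl28, Ang4, Atp2c2, Gpx2, Ccl20, Pdk4 and Gjb2 followed (r from 0.97 to 0.98). Clps and Rnase1, both secreted proteins, measured 83.4 ± 11.4 and 240.03 ± 2.75 RPM at P3.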

How the data were processed

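Per the file headers, the authors deposited 1 table of expression signal in RPM, read numbers scaled to library depth. Per the submitters' processing notes, the build was mm10 and the tools included TopHat 1.4.1 and Bowtie 1.0.1, besides cutadapt 1.11 and also Cufflinks 2.2.0, with no role given for each. Whether counting used strand is not stated there. Of 26310 lines, 25146 had all 26 values and were used. Of the 1164 others, 92 were spike-ins and 1072 were gene lines, which were left out, and none was a hormone gene. Low values fell on whole reads (within 0.02) in 73.2 to 86.7% of cases per library, so they were not treated as counts.

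Samples were grouped by their labels. Each gene with at least 5 RPM in at least 2 libraries of a fit was tested on log2(RPM + 1) with limma 3.58.1 (variance trend, two-sided, Benjamini-Hochberg over all genes) in R 4.3.3. The fits held the 6 intestinal, the 10 retinal or all 26 libraries, the last for the contrasts with the mean of 10 other groups. The script was tested on simulated data. Tables and figures used Python 3.11.15, NumPy 2.4.6, pandas 2.3.3 and matplotlib 3.10.9. Alternatives were other pseudocounts, filters and scalings, no trend, a replicate block and each library left out.

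All 10 hormone genes are named. Of each other list, the rule named up to 5 called genes with the largest change from E16.5 to P3, genes at 0 in all 6 intestinal libraries, and every receptor past the filter, and by likeness the 10 genes with the highest Pearson r. Marker lists are given as summed levels, with up to 3 of their highest genes. Pdx1, Anpep, Mboat4, Prdm1, Ctrb1, Cela1, S100b and Ret are named beside this rule and were chosen after their values were seen. The genes and lists were chosen with earlier results of these data known. Of the listed symbols, Uts2b, Ffar4, Gpr120 and Npy4r were not matched (the older names O3far1 and Ppyr1 were). Positions are from RefSeq, GRCm38.p6.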

Additional observations from a re-analysis of the deposited data

How the results depend on the processing

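With 2 libraries per group, and 1 read worth up to 0.583 RPM, changes of genes near 1 RPM could not be measured closely, and the size of a rise from E16.5 depended on the pseudocount. The 10 calls from E16.5 to P3 and from E16.5 to P14, and the 10 calls of P3 and of P14 against other lineages, were the same in number under every alternative tried. Of 120 alternative values for single hormone genes from P3 to P14, 95 kept their side of the threshold, 21 lost the call and 4 gained it, and none was reversed. The count of 7 hormone genes called there became 0 with no filter on low values (7 with an unadjusted p under 0.05) and 1 without the trend. The count over all genes then went from 461 to 143 and 249. With a library left out, the genes called were not always the same. Without P3 replicate 1 or P14 replicate 1, Sct and Gip lost the call, while Gcg passed the fold threshold as a rise. Without the filter the adjusted p of the 7 genes (limma) ran from 0.0549 (Pyy) to 0.475 (Gip), more genes being tested (18213 against 10481). The cause of the change without the trend was not tested.

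For E16.5 against other lineages, the 9 calls became 5 with a pseudocount of 5 RPM and were 8 to 9 with a library left out. From P4 to P10 in CD73-positive retinal cells, the 1 call (Sct) became 0 with a pseudocount of 5 RPM, with no filter, with a filter of 10 RPM (where Sct is not tested), with quantile normalization and without the trend, and 0 to 2 with a library left out. With median-of-ratios scaling the count was also 1, but the gene called was Chga and not Sct. For P4 CD73-negative cells against P0, the 0 calls became 1 with no filter, Nts (1.74 ± 0.41, limma, adjusted p = 0.0385). The cause was not tested. Median-of-ratios scaling moved the median of all genes from 0.11 to 0.00 between E16.5 and P3, from -0.13 to 0.00 between P4 and P10, and from -0.35 to -0.14 for E16.5 and -0.26 to -0.10 for P14 against other lineages.

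The labels number the replicates, but nothing says that a number marks a shared animal or day. Replicate differences of the 3 intestinal ages correlated over genes at 0.04, -0.05 and -0.05. Values near 0 cannot show whether libraries of the same number shared a day or handling. The 2 retinal gates at P4 did deviate together, at 0.28, and whether they came from the same retinas is not given in the labels. With the replicate number as a block, limma called 10, 7 and 10 hormone genes in the 3 intestinal comparisons and 9, 10 and 10 in the contrasts with other lineages, and 0, 0 and 1 in the 3 retinal ones. The block thus changed no count of hormone genes.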
